A study of Mus musculus with 9 samples.

Results

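Transcript levels of 10 genes that mark endothelial cells, the cells that line blood vessels, were followed across 9 Illumina mouse bead arrays. The genes were Pecam1, Cdh5, Cldn5, Flt1, Kdr, Tek, Tie1, Emcn, Vwf and Egfl7. They were matched by symbol, ignoring case, among 19053 genes with a probe, and had 18 of the 45281 probes. All 10 could be tested, among 10024 genes tested in all, and 14 of their 18 probes passed the filter, which asked for detection on all 3 arrays of at least 1 group. They are textbook endothelial genes, and no measured value enters the rule that lists them, although the list was drawn up with earlier results of these data known.

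The arrays fall into 3 groups of 3, all of cells from mouse hearts that carry the reporter allele Gt(ROSA)26Sortm1(EYFP)Cos (strain prefix B6.129X1, background C57BL/6J), in which Cre switches on YFP from the Rosa26 locus. YFP-positive cardiomyocytes were sorted by fluorescence from the left ventricular apex 28 days after 1 injection under the skin of isoproterenol (200 mg per kg), which stimulates beta-adrenergic receptors and at this dose damages the myocardium. These mice carried a lentivirus in which c-kit regulatory sequence drives Cre, so that YFP marks cells, or the offspring of cells, in which that construct was active, whatever their type. Their titles contain the words in vitro, which the design text does not use, and which of the texts is right is not known. Adult cardiomyocytes, labelled normal, came from hearts of the same strain without mention of the virus; the injection text stands with every sample, so that whether these mice were injected is not settled. The eCSCs were c-kit-positive, CD45-negative cells that the labels call endogenous cardiac stem cells, harvested at passage 4 of culture. The design text gives as purpose a test of what the YFP-positive cells are and of their degree of maturation. Whether replicates are different mice or cultures is not stated, and the p-values cover the spread among these arrays alone, part or all of which may be technical.

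The arrays detected 15326 to 19048 probes each, and their median raw signals were 93.6 to 117.9. A probe counts as detected where its detection p, set against the negative control bead types of the array, is under 0.05. All 15 cardiomyocyte markers tested were higher in YFP-positive cells than in eCSCs and all 15 were higher in adult cells than in eCSCs. Over all genes tested, 34.4% and 35.8% were called higher in these comparisons. Kit, the c-kit receptor by which the eCSCs were labelled, was detected on no eCSC array. YFP-positive replicate 2 was unlike the other arrays of its group (1 and 3), with 16802 probes detected against 19048 and 19002, a mean correlation over genes with the adult arrays of 0.922 against 0.876 and 0.880, and the lowest array weight of the 9 (0.443). Results for the endothelial genes are therefore also given without it.

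The endothelial lining keeps blood inside the vessel, controls clotting and lets leukocytes out. Its cells hold together by junction proteins, sense vascular endothelial growth factors (VEGFs) and angiopoietins through receptor tyrosine kinases, and carry sugar-coated and clotting proteins at the surface that faces the blood. In the heart every muscle cell lies against capillaries, and endothelial cells are among the most numerous cells of the organ. Many endothelial genes are controlled by transcription factors of the ETS family, which bind DNA at a GGAA core.

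Promoters of 7 of the 10 genes were found in the RefSeq table of the assembly GRCm38.p6, each running from 250 bases before to 50 bases after a start site; Egfl7 has 3 of them, so that 9 promoters were read, and none was found for Pecam1, Cdh5 or Vwf. Both strands were searched for 2 forms of the ETS core, CCGGAA and CAGGAA. Cldn5 and Flt1 were higher in YFP-positive cells, hold neither of these 2 forms and are not printed. GGAA with other bases before it was not searched for. No link between core and direction was tested. Printed here are the promoters of 4 genes that were higher in YFP-positive cells and hold CAGGAA. That of Kdr, called lower there with a dim probe, holds CCGGAA and is printed too. Each runs 5′ to 3′ on the strand of its gene, and capitals mark the core on either strand (CCGGAA reads TTCCGG and CAGGAA reads TTCCTG on the other strand). The Emcn promoter lies at chr3:137340828-137341127 on the plus strand, that of Tek at chr4:94739039-94739338 on the plus strand, that of Tie1 at chr4:118489800-118490099 on the minus strand, the first of Egfl7 at chr2:26580833-26581132 on the plus strand and that of Kdr at chr5:75978406-75978705 on the minus strand.
Emcn: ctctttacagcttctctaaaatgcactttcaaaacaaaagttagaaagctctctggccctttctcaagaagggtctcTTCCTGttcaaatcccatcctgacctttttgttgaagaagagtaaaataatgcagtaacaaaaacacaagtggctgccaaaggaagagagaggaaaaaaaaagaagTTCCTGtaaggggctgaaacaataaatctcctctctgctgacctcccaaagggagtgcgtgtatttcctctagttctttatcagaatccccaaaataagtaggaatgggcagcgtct
Tek: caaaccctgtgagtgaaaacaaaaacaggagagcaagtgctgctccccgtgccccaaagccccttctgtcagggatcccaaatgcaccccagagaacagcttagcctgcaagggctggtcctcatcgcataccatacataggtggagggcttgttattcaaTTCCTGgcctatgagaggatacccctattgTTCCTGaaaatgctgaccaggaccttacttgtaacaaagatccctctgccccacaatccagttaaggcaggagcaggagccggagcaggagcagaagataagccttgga
Tie1: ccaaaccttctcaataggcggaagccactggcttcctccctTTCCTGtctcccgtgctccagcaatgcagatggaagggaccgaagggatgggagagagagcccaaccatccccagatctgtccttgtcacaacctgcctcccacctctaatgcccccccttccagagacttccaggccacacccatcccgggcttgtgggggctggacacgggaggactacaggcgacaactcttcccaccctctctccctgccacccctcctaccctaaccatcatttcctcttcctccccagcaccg
Egfl7: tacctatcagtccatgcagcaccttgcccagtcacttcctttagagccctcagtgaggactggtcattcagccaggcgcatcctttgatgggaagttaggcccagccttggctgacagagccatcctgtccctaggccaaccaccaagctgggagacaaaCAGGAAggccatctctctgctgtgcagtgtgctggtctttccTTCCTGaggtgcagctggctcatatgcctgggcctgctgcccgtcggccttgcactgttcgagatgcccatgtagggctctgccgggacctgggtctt
Kdr: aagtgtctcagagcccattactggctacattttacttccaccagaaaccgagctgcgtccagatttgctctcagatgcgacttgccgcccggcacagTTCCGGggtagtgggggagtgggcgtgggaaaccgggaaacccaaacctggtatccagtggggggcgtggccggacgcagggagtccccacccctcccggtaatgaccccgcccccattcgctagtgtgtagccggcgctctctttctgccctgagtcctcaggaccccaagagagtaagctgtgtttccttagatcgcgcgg

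CAGGAA occurred in 5 of the 9 promoters (Tek, Tie1, Emcn and 2 of Egfl7), and in 30.6% of the 32851 mouse promoters of that length. The longer form AACAGGAA, which contains CAGGAA, was in 2 of the 9 (Emcn and the first of Egfl7) and in 2.65% of all. CCGGAA was in 1 of the 9 (Kdr) and in 14.9% of all. The search also took in AGATAA, bound by GATA factors, which was in the Tek promoter and in 11.2% of all. The TATA box TATAAA was in that of Flt1 and in 13.6% of all. The SOX factor motif ACAATG was in none of the 9 and in 12.6% of all. A match to so short a motif is a description of the letters and does not show binding.

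In YFP-positive cardiomyocytes 9 of the 10 endothelial genes were higher than in adult cardiomyocytes and 1, Kdr, was lower, by limma's moderated test over 10024 genes with Benjamini-Hochberg adjustment at 0.05. Over all genes tested, 22.8% were called higher and 27.7% lower in this comparison. Levels are normalized log2 signals, and differences are differences of their means over 3 arrays ± SE. The median difference of the 10 genes was 1.73, against -0.08 for all genes tested. The 2 groups of arrays did not overlap for any of the 10, which was also so for 58.7% of all genes. In samples of many cells, more cells of a type and more RNA per cell cannot be told apart.

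**Figure D1:**
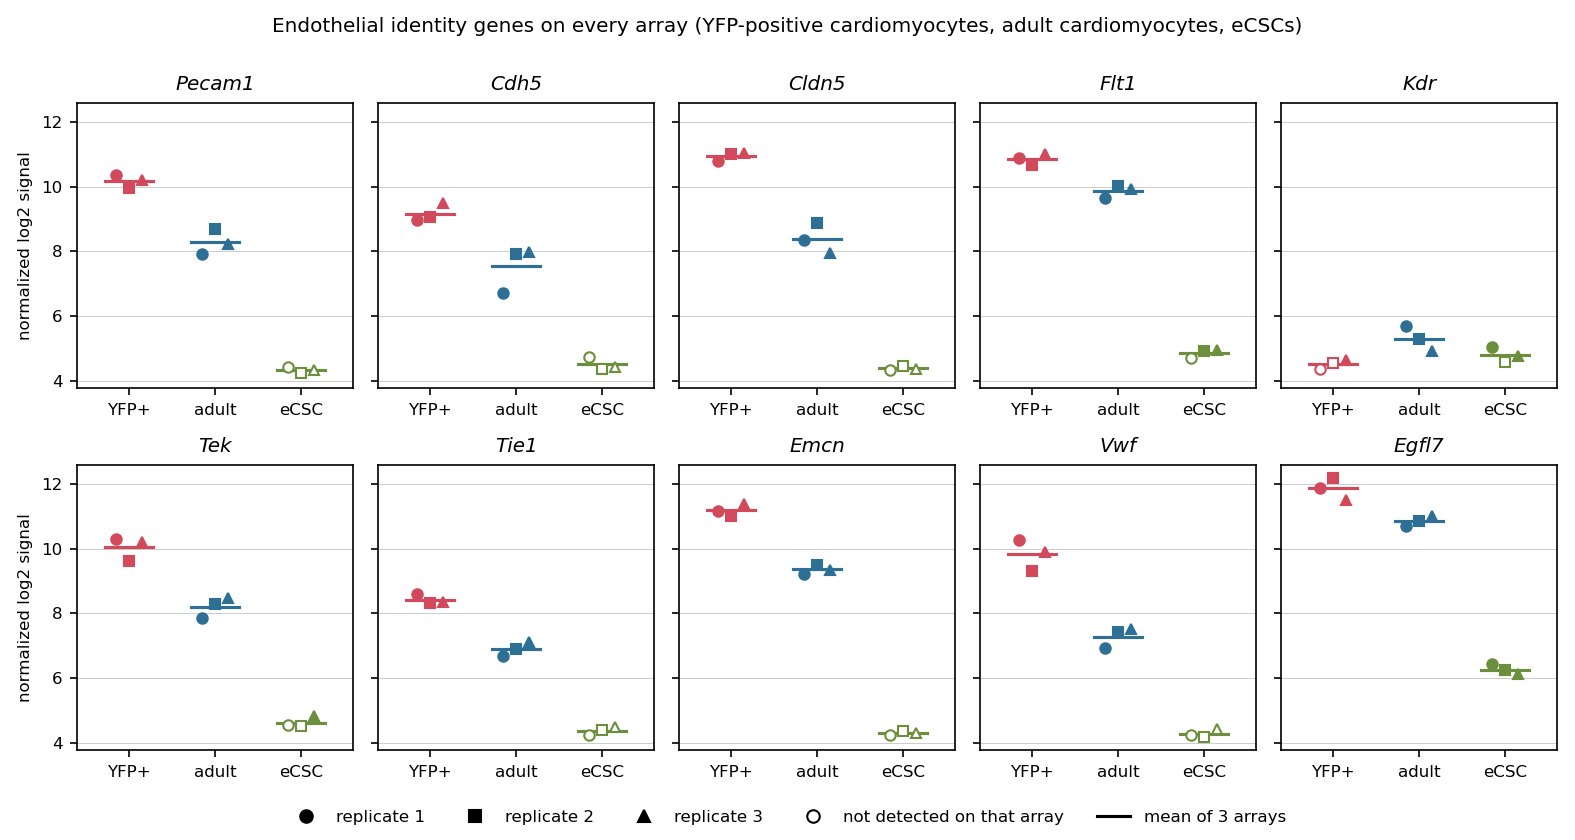
Normalized log2 signal (vertical axis) of the probe that stands for each of the 10 endothelial genes on every array; symbols give the replicate, open symbols an array on which the probe was not detected, and bars the mean of 3 arrays. In every panel but that of Kdr the YFP-positive arrays lie highest, the adult arrays lie between, and the eCSC arrays lie lowest.

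The junction genes come first. Pecam1 encodes CD31, an adhesion molecule at the contacts between endothelial cells that platelets and leukocytes also carry. Its signal was 10.34, 9.95 and 10.19 on YFP-positive replicates 1, 2 and 3, against 7.91, 8.68 and 8.24 on the adult arrays and 4.43, 4.26 and 4.35 on the eCSC arrays. All YFP-positive arrays were higher than all adult arrays, and no eCSC array detected the probe. The difference between YFP-positive and adult cells was 1.88 ± 0.20, or 3.68-fold (adjusted p = 5.42e-06).

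Cdh5 encodes VE-cadherin, the adhesion protein of endothelial adherens junctions. It measured 8.96, 9.05 and 9.49 in YFP-positive cells, against 6.72, 7.93 and 7.97 in adult cells and 4.73, 4.38 and 4.45 in eCSCs. Adult replicate 1 lay well below the other adult arrays, so that the spread of the adult group (SD 0.71, n = 3) was the widest of any of the 10 genes in any group. The difference of 1.63 ± 0.28 passed the test (adjusted p = 0.000381), and it was 1.22 without adult replicate 1 (adjusted p = 0.000544).

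Cldn5, the claudin of endothelial tight junctions, differed most of the 10 genes between the 2 kinds of cardiomyocytes. Its signal was 10.78, 11.01 and 11.02 in YFP-positive cells, against 8.35, 8.88 and 7.94 in adult cells and 4.34, 4.48 and 4.36 in eCSCs, where it was not detected. YFP-positive cells were tight and adult cells spread (SD 0.14 and 0.47, n = 3 each). The difference of 2.55 ± 0.21 is 5.86-fold (adjusted p = 5.0e-07), and 2.42% of all genes tested had a larger one.

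Among the VEGF receptors the 2 genes went different ways. Flt1 encodes VEGFR1, which binds VEGF-A tightly but signals weakly. Its signal was 10.89, 10.67 and 10.99 in YFP-positive cells, against 9.66, 10.02 and 9.92 in adult cells and 4.72, 4.94 and 4.95 in eCSCs. The groups were separate, with a difference of 0.98 ± 0.17 between YFP-positive and adult cells, or 1.98-fold (adjusted p = 0.000374).

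Kdr encodes VEGFR2, the main signalling receptor for VEGF-A on endothelium. Its signal was 4.38, 4.55 and 4.65 in YFP-positive cells, against 5.71, 5.29 and 4.94 in adult cells and 5.05, 4.60 and 4.78 in eCSCs. The probe was dim throughout: it was detected on 1 of 3 YFP-positive, 3 of 3 adult and 2 of 3 eCSC arrays. Raw signals of 98.3, 95.5 and 108.4 in YFP-positive cells stood against 120.0, 108.9 and 99.3 in adult cells, so that on the raw scale the groups overlap. On the normalized scale the YFP-positive arrays lay just below the adult arrays, and the difference of -0.79 ± 0.21 passed the test (adjusted p = 0.00605). That call was lost with no normalization between arrays (-0.43, adjusted p = 0.271), with median scaling (-0.51, adjusted p = 0.105) and in the authors' normalized gene-level values (-0.16, adjusted p = 0.0825), and without background correction the difference was -0.25 (adjusted p = 0.0424). The other Kdr probe was detected on none of the 9 arrays.

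Tek and Tie1 are the receptor pair of the angiopoietin system. Tek encodes TIE2, which binds angiopoietins and steadies resting vessels. It measured 10.30, 9.63 and 10.21 in YFP-positive cells, against 7.87, 8.29 and 8.47 in adult cells and 4.55, 4.52 and 4.83 in eCSCs, with YFP-positive replicate 2 the lowest of its group and still above every adult array. The difference between YFP-positive and adult cells was 1.84 ± 0.21, or 3.57-fold (adjusted p = 1.20e-05). Tie1 encodes a partner of TIE2 that tunes its signal. Its levels were 8.61, 8.33 and 8.35 in YFP-positive cells, against 6.68, 6.91 and 7.11 in adult cells and 4.25, 4.41 and 4.51 in eCSCs, where no array detected it. YFP-positive cells were higher on every array, by 1.53 ± 0.17 (adjusted p = 9.70e-06).

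Of the genes for surface and secreted proteins, Emcn encodes endomucin, a sialomucin found chiefly on capillary and venous endothelium. Its signal was 11.15, 11.02 and 11.39 in YFP-positive cells, against 9.22, 9.51 and 9.35 in adult cells and 4.25, 4.37 and 4.32 in eCSCs. The arrays of each group lay close together (SD 0.19 in YFP-positive and 0.15 in adult cells, n = 3 each), and the difference was 1.82 ± 0.17 (adjusted p = 1.19e-06). Vwf encodes von Willebrand factor, which endothelial cells store and release to catch platelets, and which megakaryocytes also make. It stood at 10.25, 9.31 and 9.90 in YFP-positive cells, against 6.94, 7.42 and 7.51 in adult cells and 4.26, 4.18 and 4.44 in eCSCs. YFP-positive replicate 2 was the lowest of its group, and the difference of 2.53 ± 0.23 (adjusted p = 1.31e-06) was 2.79 without that array.

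Egfl7 encodes a matrix-bound protein that endothelial cells secrete as vessels form, and its gene also holds the microRNA miR-126. The signal was 11.87, 12.18 and 11.51 in YFP-positive cells, against 10.71, 10.85 and 11.01 in adult cells and 6.43, 6.26 and 6.12 in eCSCs. Egfl7 was detected on all 9 arrays, which was so for no other of the 10 genes. Here YFP-positive replicate 2 was the highest of its group. The difference between YFP-positive and adult cells was 0.99 ± 0.19 (adjusted p = 0.000802).

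**Figure D2:**
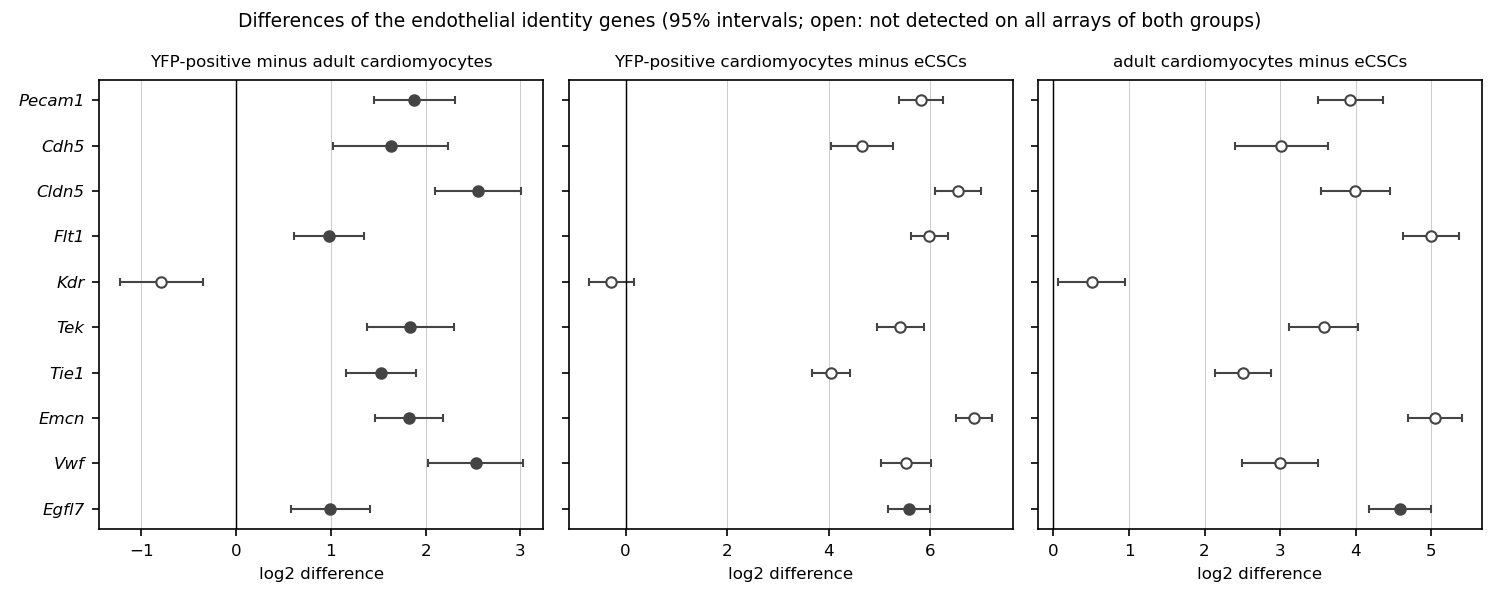
Log2 differences of the 10 endothelial genes (points, with 95% intervals from the model) for YFP-positive minus adult cardiomyocytes, YFP-positive cardiomyocytes minus eCSCs and adult cardiomyocytes minus eCSCs; open points mark genes not detected on all arrays of both groups. The differences between YFP-positive and adult cells run from -0.79 for Kdr to 2.55 for Cldn5, and against eCSCs those of Kdr are -0.28 for YFP-positive and 0.51 for adult cells, the smallest of the 10 genes.

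Against the eCSCs, 9 of the 10 genes were higher in YFP-positive cardiomyocytes, none was lower, and Kdr was not called; of all genes 34.4% were called higher and 38.6% lower in this comparison. The arrays of the 2 groups were separate for 9 of the 10, as for 76.1% of all genes. In adult cardiomyocytes all 10 were called higher than in eCSCs, against 35.8% of all genes called higher and 39.4% lower, and the arrays were separate for 9 of the 10, against 77.7% of all genes. Both comparisons use the same eCSC arrays. Detection on all 6 cardiomyocyte arrays and on none of the eCSC arrays held for 6 of the 10 genes (Pecam1, Cdh5, Cldn5, Tie1, Emcn and Vwf), and for 7.46% of all genes tested. For these 6 only a lower limit of the fold can be given: the mean of the brighter group was set, on each eCSC array, against the dimmest probe that was still detected, or against the gene's own signal where that was higher.

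Emcn was at least 86.7-fold higher in YFP-positive cells than in eCSCs, and at least 24.5-fold higher in adult cells than in eCSCs. For Cldn5 these limits were at least 73.2-fold and at least 12.5-fold, and for Pecam1 at least 42.7-fold and at least 11.6-fold. Vwf was at least 33.7-fold higher in YFP-positive cells and at least 5.84-fold higher in adult cells, Cdh5 at least 21.4-fold and at least 6.93-fold, and Tie1 at least 12.9-fold and at least 4.46-fold. In each of these 6 genes the 2 groups of a comparison were separate, and the largest adjusted p among them was 2.25e-07. The limits hold for background-corrected signals only. Without the correction the log2 difference between YFP-positive cells and eCSCs was 4.65 for Emcn, in place of 6.87, and 3.66 for Pecam1, in place of 5.81; between adult cells and eCSCs it was 2.95 for Emcn, in place of 5.05, and 2.02 for Pecam1, in place of 3.93. Every one of the 6 genes kept its call in both comparisons without it.

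The other 4 genes were detected on some or all eCSC arrays. Egfl7, on 3 of 3, was 5.58 ± 0.19 higher in YFP-positive cells than in eCSCs on the log2 scale and 4.59 ± 0.19 higher in adult cells than in eCSCs. Flt1, on 2 of 3, was higher by 5.98 ± 0.17 in YFP-positive and by 5.0 ± 0.17 in adult cells. Tek, on 1 of 3, was higher by 5.41 ± 0.21 in YFP-positive and by 3.58 ± 0.21 in adult cells. Sizes against so dim a signal depend on the background correction: without one, the median difference of the 10 genes was 3.55 between YFP-positive cells and eCSCs, in place of 5.55, and 1.93 between adult cells and eCSCs, in place of 3.75.

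Kdr differed from the other 9 genes in the order of its levels. YFP-positive cells were lowest and did not pass the test against eCSCs (-0.28, 95% interval -0.72 to 0.16, adjusted p = 0.231). Adult cells were highest, 0.51 ± 0.21 above eCSCs (adjusted p = 0.0381), although adult and eCSC arrays overlapped. That call was lost under 12 of the 20 other settings tried for it, among them the omission of adult replicate 1 (0.31, adjusted p = 0.190) or of eCSC replicate 2 (0.40, adjusted p = 0.140), and its adjusted p ran from 0.00896 to 0.851. For the other 9 genes the order was YFP-positive, adult, eCSC, and every step of it passed the test.

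Second probes passed the filter for Pecam1, Cdh5, Flt1 and Egfl7, and all 4 were called higher in YFP-positive than in adult cells, with adjustment over 18180 probes, of which 21.0% were called higher. That of Pecam1 gave 1.66 (adjusted p = 9.25e-06), that of Cdh5 1.20 (adjusted p = 0.00288) and that of Egfl7 0.95 (adjusted p = 0.000700). The second Flt1 probe was dim, with means of 5.55 in YFP-positive, 4.84 in adult cells and 4.47 in eCSCs, and gave 0.70 (adjusted p = 0.0158); between adult cells and eCSCs it gave 0.38 (adjusted p = 0.132), where the bright Flt1 probe gave 5.0. Probes of Pecam1, Kdr, Vwf and Egfl7, 1 each, did not pass the filter and were not tested.

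**Figure D3:**
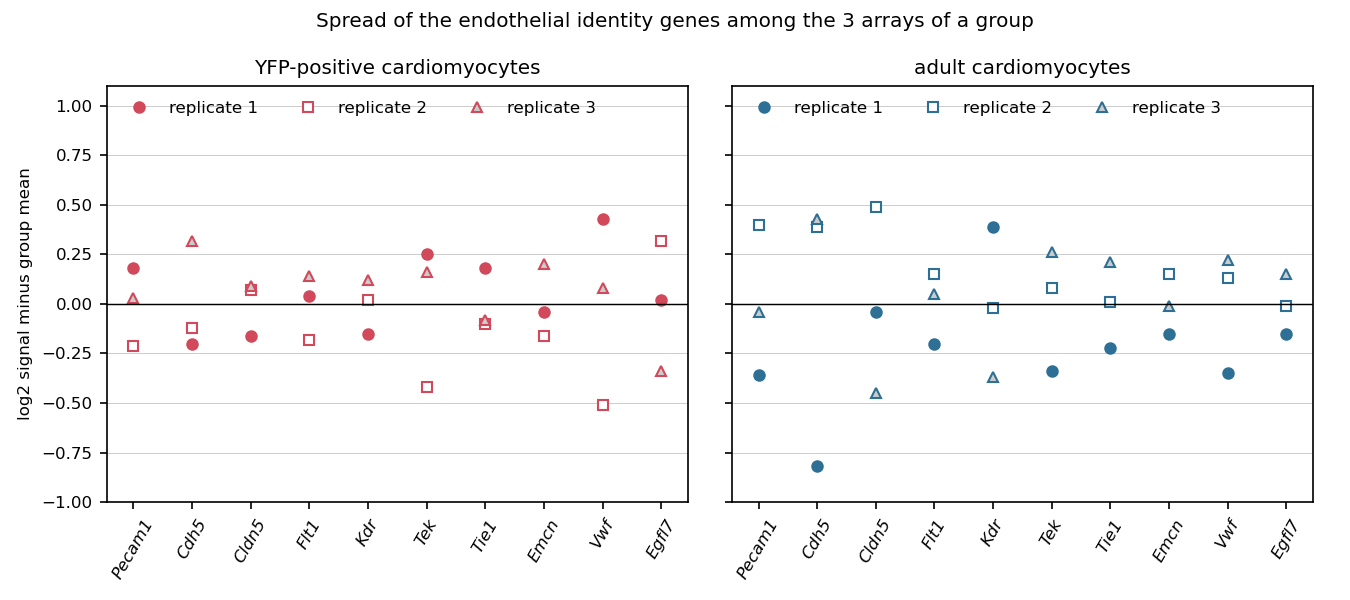
Deviation of each array from the mean of its group (vertical axis, log2 units) for the 10 endothelial genes, in YFP-positive cardiomyocytes and in adult cardiomyocytes; symbols give the replicate. YFP-positive replicate 2 is lowest for 6 of the 10 genes and adult replicate 1 for 8 of the 10.

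In each cardiomyocyte group a single array was the lowest for most of the 10 genes. The eCSC arrays had median deviations of -0.04, -0.05 and 0 over the 10 genes. YFP-positive replicate 2 was the lowest of its group for 6 of the 10 genes, against 35.5% of all genes. Its largest shortfalls from the mean of replicates 1 and 3 were -0.77 for Vwf and -0.62 for Tek, while Egfl7 exceeded that mean by 0.49 and Cldn5 by 0.11. The median deviation of the 10 genes on that array was -0.14. It was -0.17 for 12 leukocyte markers, -0.19 for 14 fibroblast and matrix markers, 0.12 for 15 cardiomyocyte markers and 0.02 for all genes. Lists of other endothelial genes, described below, varied on that array. Medians were 0.19 for heart capillary, 0.05 for arterial and -0.01 for other surface and junction genes. They were -0.1 for transcription factors, -0.2 for signalling and haemostasis, -0.2 for lymphatic and -0.26 for venous and endocardial genes. Smooth muscle and pericyte markers had 0.12 and platelet genes 0.18. Without that array all 10 genes kept their call between YFP-positive and adult cells, with a median difference of 1.80.

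Adult replicate 1 was the lowest of its group for 8 of the 10 genes, against 35.3% of all genes, and its median deviation over them was -0.21. It was also lowest for 16 of 23 other endothelial surface and junction genes, for 15 of 21 endothelial transcription factors and for 9 of 12 leukocyte markers. Kdr went the other way and was highest on that array. Without it the median difference of the 10 genes between YFP-positive and adult cells was 1.54, and all 10 calls held.

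Other endothelial genes were read from fixed lists, whose counts of calls stand beside the following shares of all genes tested. Between YFP-positive and adult cells 22.8% were called higher and 27.7% lower. The shares were 34.4% and 38.6% between YFP-positive cells and eCSCs, and 35.8% and 39.4% between adult cells and eCSCs. Of 21 endothelial transcription factors tested, 16 were higher and 1 lower in YFP-positive than in adult cells, with a median difference of 0.95. Sox7, a SOX factor of early endothelium, averaged 10.22 ± 0.30 in YFP-positive cells and 7.16 ± 0.22 in adult cells (SD, n = 3 each), with every YFP-positive array above every adult array and a difference of 3.06 (adjusted p = 3.0e-08 by limma). Klf4, a flow-responsive Krüppel-like factor, was higher by 3.33 (adjusted p = 1.2e-06), and Lmo2, a partner of GATA and SCL factors, by 0.95 (adjusted p = 0.00024). The 1 gene lower was Epas1, which encodes the hypoxia-inducible factor HIF-2 alpha (-0.80, adjusted p = 0.0011). Against eCSCs, 17 of the 21 were higher in YFP-positive cells and none lower; in adult cells 12 were higher than in eCSCs and 5 lower, among them Gata2, Klf4, Foxc1, Hlx and Nfatc1.

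Of 23 other surface and junction genes tested, 18 were higher and 1 lower in YFP-positive than in adult cells (median 1.09). Plvap, which forms the diaphragms of fenestrated endothelium, was at 10.14, 9.70 and 9.70 in YFP-positive cells, against 5.91, 6.39 and 6.34 in adult cells, 3.63 higher (adjusted p = 1.5e-08). Cd93, an endothelial lectin-like receptor, was higher by 2.33 (adjusted p = 4.1e-07) and Apold1 by 3.56 (adjusted p = 3.6e-07), the second detected on 1 of 3 adult arrays. Jam2, a junctional adhesion molecule, was lower (-1.14, adjusted p = 4.3e-05). Esam, an adhesion molecule of endothelial tight junctions, was at least 105-fold higher in YFP-positive cells than in eCSCs and at least 36.0-fold higher in adult cells than in eCSCs. In this list 22 of 23 were higher in YFP-positive cells than in eCSCs, and 19 of 23 in adult cells than in eCSCs, with none lower in either.

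Genes of endothelial signalling and haemostasis numbered 16 tested, of which 11 were higher and none lower in YFP-positive than in adult cells (median 1.77). Icam1 and Vcam1, which hold leukocytes to the vessel wall, were higher by 3.89 (adjusted p = 2.8e-08) and 3.47 (adjusted p = 9.2e-08), and Ednrb, the endothelin B receptor, by 3.64 (adjusted p = 1.3e-08). Vcam1 had means of 9.40 in YFP-positive cells, 5.93 in adult cells and 9.76 in eCSCs; adult cells were lower than eCSCs by test (-3.83, adjusted p = 3.3e-09), while YFP-positive cells and eCSCs overlapped and did not pass the test (-0.36, 95% interval -0.89 to 0.17, adjusted p = 0.199). Rgs5, a regulator of G protein signals that pericytes express strongly, did not pass the test between the cardiomyocytes (0.23, adjusted p = 0.43).

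By vessel type, venous and endocardial genes had a median difference of 2.21 between YFP-positive and adult cells, with 10 of 13 higher and none lower. Fibroblast and matrix markers, described below, had a median of 2.62 in the same comparison, and which cells gave the 2.21 was not tested. The list holds Vwf itself, and shares Plvap, Selp, Vcam1, Aplnr and Nfatc1 with lists above. Of these Vcam1 had its highest mean in eCSCs (9.76). Bgn was higher by 2.39 (adjusted p = 1.1e-07), with its highest mean in eCSCs (12.97). Nr2f2 was dim, detected on 2 of 3 YFP-positive arrays and on no adult array, and at least 1.15-fold higher (adjusted p = 0.013). Its mean was highest in eCSCs (6.58). Tmem100 did not pass the test (-0.38, adjusted p = 0.10). Of 14 arterial genes 10 were higher and none lower (median 0.92): the connexin gene Gja5 was higher by 1.84 (adjusted p = 4.1e-05), the Notch target Hey1 by 1.53 (adjusted p = 0.00016) and Mgp, the matrix Gla protein, by 2.06 (adjusted p = 1.1e-06). Heart capillary genes had 6 of 13 higher, 2 lower and 5 not called (median 0.37). The 2 lower genes fell outside the selection of genes to be named, so that the genes named here are mostly those that were higher. The differences in that list ran from -1.22 to 3.54, the largest being that of Kit, given below. Cav1 was higher by 1.71 (adjusted p = 9.7e-06) and Sgk1 by 2.23 (adjusted p = 6.5e-05). The chemokine Cxcl12 stood at means of 11.22 in YFP-positive and 11.10 in adult cells (difference 0.12, adjusted p = 0.65). Gpihbp1, which holds lipoprotein lipase on capillaries, was higher by 0.69 (adjusted p = 0.022). The capillary list shares Meox2 and Tcf15, and the arterial list Sox17, with the transcription factors.

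Kit belongs to the capillary list and is also the gene whose control region drove Cre. It measured 8.68, 7.40 and 8.66 in YFP-positive cells, against 4.77, 4.76 and 4.57 in adult cells and 4.17, 4.24 and 4.23 in eCSCs. It was detected on all YFP-positive arrays and on none of the others, and was at least 10.4-fold higher in YFP-positive than in adult cells (adjusted p = 2.2e-07) and at least 11.3-fold higher than in eCSCs. YFP-positive replicate 2 was again the lowest of its group.

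Of 8 lymphatic genes tested, 6 were higher and 1 lower in YFP-positive than in adult cells (median 1.13). Lyve1, a hyaluronan receptor that macrophages also carry, was detected only on the YFP-positive arrays and was at least 3.30-fold higher there than in adult cells (adjusted p = 1.6e-06). Pdpn, podoplanin, was higher by 3.80 (adjusted p = 4.2e-08), but was lower in YFP-positive cells than in eCSCs (-1.07, adjusted p = 0.0013). Prox1, the master factor of lymphatic fate, which heart muscle cells also express, was lower (-0.49, adjusted p = 0.015).

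For the receptors' own ligands and partners, 6 of 11 were higher and 2 lower in YFP-positive than in adult cells (median 0.60). The 2 lower were Vegfb and Grb14 (Grb14 -0.75, adjusted p = 0.024). The list shares Ptprb with the surface and junction genes above. Angpt2, the TIE2 ligand that loosens vessels, measured 8.04, 7.69 and 8.86 in YFP-positive cells, against 6.07, 6.16 and 6.04 in adult cells and 6.27, 6.02 and 6.28 in eCSCs; it was 2.11 higher in YFP-positive than in adult cells (adjusted p = 1.0e-05). Angpt1, the ligand that activates TIE2, did not pass the test (-0.32, adjusted p = 0.28). Vegfb, a ligand of VEGFR1 made by heart muscle, was lower, at 11.49, 11.83 and 11.40 in YFP-positive cells, against 12.42, 12.45 and 12.42 in adult cells (difference -0.85, adjusted p = 0.0010), and Vegfa had means of 10.78 in YFP-positive and 10.79 in adult cells (adjusted p = 0.97). Ptprb, the phosphatase that restrains TIE2, was higher by 1.09 (adjusted p = 0.00085) and the co-receptor Nrp1 by 0.60 (adjusted p = 0.015).

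**Figure D4:**
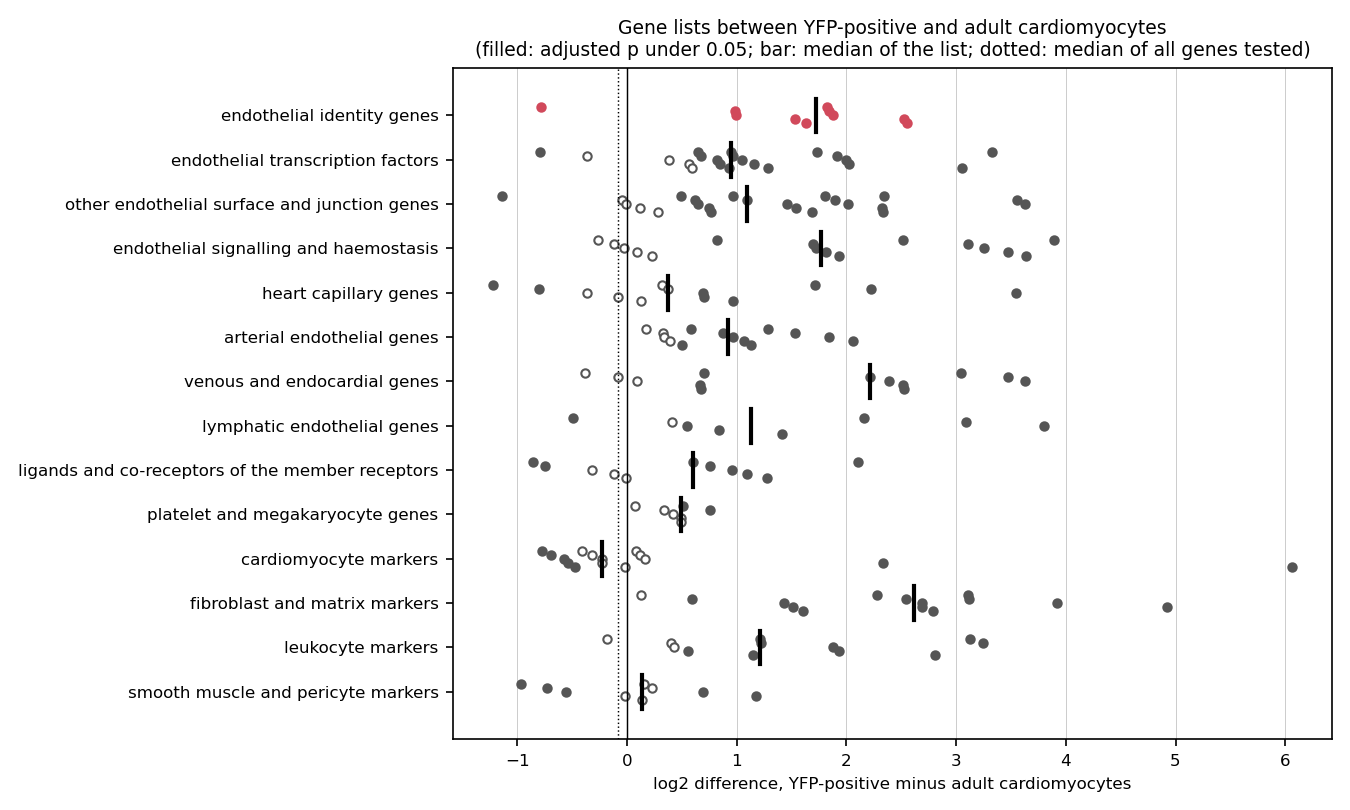
Log2 differences between YFP-positive and adult cardiomyocytes (horizontal axis) for every tested gene of each list; filled points passed the test, bars give the median of a list and the dotted line the median of all genes tested. The endothelial identity genes have a median of 1.73, fibroblast and matrix markers of 2.62, leukocyte markers of 1.22 and cardiomyocyte markers of -0.23.

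Markers of other cell types were read in this comparison too, in which 22.8% of all genes were called higher and 27.7% lower. Of 14 fibroblast and matrix markers 13 were higher and none lower in YFP-positive than in adult cells, with a median difference of 2.62; their summed linear signal was 13610 to 18600 on the YFP-positive arrays and 3353 to 4541 on the adult arrays. Of 12 leukocyte markers 9 were higher and none lower (median 1.22), with sums of 2655 to 8208 in YFP-positive and 873.1 to 1188 in adult cells. Cardiomyocyte markers had 2 of 15 higher and 5 lower (median -0.23), with sums of 202900 to 214900 in YFP-positive and 207300 to 225800 in adult cells. These sums come mostly from the brightest markers, such as Myl3 (means 14.80 in YFP-positive and 14.68 in adult cells), and tell little of dimmer ones. The 5 lower were Cox8b (-0.78), Casq2 (-0.69), Pln (-0.57), Tnni3 (-0.54) and Fabp3 (-0.48). Smooth muscle and pericyte markers had 2 of 9 higher and 3 lower (median 0.14), with sums of 15240 to 16850 in YFP-positive and 12780 to 15960 in adult cells. Most of these sums came from Acta2, which was higher (1.18, adjusted p = 0.0053), and Des, which was lower (-0.73, adjusted p = 0.0041). Near-equal sums of this list therefore hide opposite differences. Platelet genes had 2 of 7 higher and none lower, with a median of 0.49, or 0.11 with undetected genes at their limit, and all 7 were dim. The same sum over the 10 endothelial genes was 13680 to 14350 in YFP-positive, 4266 to 5383 in adult cells and 277.2 to 294.6 in eCSCs. The part of other cells in the endothelial result was not tested.

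The fibroblast gene Col1a1, the chief collagen chain, had means of 9.75 in YFP-positive cells, 4.82 in adult cells and 7.99 in eCSCs, and Lum, lumican, had means of 9.93, 7.24 and 4.30 in the same order. Col1a1 was detected on 1 of 3 adult arrays. Laptm5, a lysosomal protein of leukocytes, had means of 10.76 in YFP-positive cells, 7.62 in adult cells and 4.24 in eCSCs. Myl7, the atrial myosin light chain, was the cardiomyocyte marker with the largest difference, 6.06 higher in YFP-positive than in adult cells (adjusted p = 1.4e-08), while Fabp3, the fatty acid binding protein of heart muscle, was lower (-0.48, adjusted p = 0.020). Myl7 was dim in adult cells, detected on 2 of 3 arrays (SD 0.85, n = 3), so that the size of its difference is uncertain. The other cardiomyocyte marker called higher was Nppa, the atrial natriuretic peptide gene (2.34, adjusted p = 1.0e-06).

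The genes whose pattern over the 9 arrays was most like the mean of the 10 endothelial genes were ranked by Pearson correlation, given as a description because the arrays fall into 3 groups. Cdkn1c, a cell cycle inhibitor, came first (r = 0.9992), followed by Igfbp5 (0.9986), Adcy4 (0.9985), Cd93 (0.9978), Lyz2 (0.9976), Icam2 (0.9975), Mmrn2 (0.9972) and C1qb (0.9969). None of these 8 was detected on an eCSC array. Cd93, Icam2 and Mmrn2 are endothelial surface or matrix genes, whereas Lyz2, lysozyme, and C1qb, a complement chain, are macrophage genes. At a lower bound, 342 of the other 10014 genes reached r of 0.95. Of the 10 genes themselves, 9 correlated with the mean of the others at 0.9753 to 0.9985, and Kdr at -0.1407.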

How the data were processed

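Biotin-labelled cRNA of total RNA was read on Illumina bead arrays, per the labels. The authors deposited an unnormalized intensity for each probe and array. The deposited column beside it is a fraction that counts how many of 936 control bead types the probe outshone; 1 minus it served as detection p. The authors also deposited normalized gene-level values and a series matrix, both close to a log2 scale; how these were transformed is not given in the sources used here, although lumi 2.10.0 and R 2.15.3 stand in the submitters' processing notes. Detection columns beside the normalized gene-level values (9) were not used. With limma 3.58.1 (R 4.3.3, data.table version 1.17.8), neqc applied normexp (offset 16), quantile normalization and log2. Probes detected at p under 0.05 on all 3 arrays of a group were kept (18180), and the brightest with exactly 1 symbol stood for its gene. Symbols came from the platform annotation, updated through RefSeq (GRCm38.p6). The 9 arrays entered a single fit (lmFit, eBayes; two-sided; Benjamini-Hochberg over 10024 genes; threshold 0.05), checked on simulated data. Samples were grouped by their titles. The labels state no pairing, and replicate numbers were not used to pair samples. Deviations of same-numbered arrays correlated at -0.064 to 0.12 and those of differently numbered arrays at -0.099 to 0.099. With 3 arrays per group this cannot exclude a pairing.

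The endothelial genes and the lists were chosen with earlier results of these data known. From each list were selected up to 3 genes with the smallest adjusted p between YFP-positive and adult cells, up to 2 in each other comparison, and those called lower where most were higher. The 8 most alike genes were added. Not every selected gene is told above. Angpt1, Vegfa, which selected genes are told and their order were chosen after values were seen. The number of arrays limits the precision. Plots used matplotlib 3.10.9 with pandas 2.3.3 under Python 3.11.15.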

Additional observations from a re-analysis of the deposited data

How the results depend on the processing

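All results were recomputed under 21 other settings, 9 of which left out 1 array each. Pecam1, Cdh5, Cldn5, Flt1, Tek, Tie1, Emcn, Vwf and Egfl7 kept their direction and their call in all 3 comparisons under every setting that gave them a value. With probes asked to be detected on all 9 arrays, only Egfl7 of the 10 genes remained to be tested, so that 1 gene was called higher in each comparison and 0 lower. The count of endothelial genes lower in YFP-positive than in adult cells, 1 (Kdr), was 0 with median scaling, with no normalization between arrays and in the normalized gene-level table. In that table Kdr had a difference of 0.0011 between YFP-positive cells and eCSCs (adjusted p = 0.99), in place of -0.28; the cause was not tested.

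Counts of all genes called between YFP-positive and adult cells were 5063 in the main setting, 2683 with no normalization between arrays, 3365 with detection on all 9 arrays and 3210 in the gene-level table, in which 6590 genes were matched. Between YFP-positive cells and eCSCs they were 7314, then 4610 with detection on all 9 arrays and 4585 in the gene-level table, and between adult cells and eCSCs 7540, 4935 and 4695; the last 2 settings test fewer genes. Scaling also moved the share of calls that were higher: 45.1% between YFP-positive and adult cells became 67.0% with median scaling and 82.1% with none, 47.1% between YFP-positive cells and eCSCs became 35.7% and 32.8%, and 47.6% between adult cells and eCSCs became 31.3% and 26.0%. With median scaling the median of all genes was 0.13, -0.45 and -0.61 in these comparisons, beside medians of 1.85, 5.15 and 3.28 for the endothelial genes, and with no normalization it was 0.24, -0.54 and -0.80 beside 1.99, 5.10 and 3.10.

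With the replicate number as a block, 9, 9 and 10 endothelial genes were called higher in the 3 comparisons, as without it, 1 was called lower between YFP-positive and adult cells, and 5040, 7307 and 7528 genes were called in all. The slide as a block was not run, since the file headers give no slide. Genes not well above background, Kdr first among them, are where signal limits what can be said.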
